A study of Mus musculus with 2 samples.

Results

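The sodium pump of mammary epithelium was examined through 8 genes, the 3 β subunit genes Atp1b1, Atp1b2 and Atp1b3 and the 5 FXYD genes Fxyd2, Fxyd3, Fxyd4, Fxyd5 and Fxyd6, out of 49492 genes in the deposited table. The members were chosen by gene name with the log2 ratios of these same libraries in view, so their values are a description and carry no test. Bulk RNA-seq was performed on cells of wild-type (WT) mice, namely basal cells sorted by FACS from mammary glands of adult females and grown in 3D culture for 10 days. There was 1 control library, from cultures labelled as untreated, and 1 library from cultures given 10 ng/mL of TNF-α. This protein is an inflammatory cytokine that acts through cell surface receptors. With 1 library per condition no difference has a replicate check, and what is due to the treatment and what to the individual culture cannot be told apart. The labels do not say how many animals gave the cells.

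The sodium pump is the ATPase that moves sodium out of the cell and potassium in, and so powers sodium-coupled transport across epithelia. Its α subunit binds the ions and splits ATP, and its β subunit carries the α subunit to the plasma membrane and contributes to adhesion between cells. FXYD proteins are small membrane proteins, named after a shared motif, that associate with the pump and tune its ion affinity and rate in a tissue-specific way. The α subunit genes are not among the members.

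The control library held 44462275 counts and the TNF-α library 53487087 counts, and 10 counts were 0.224 and 0.187 CPM, which is the count scaled to the library size after edgeR's TMM scaling. A gene was tested against a 2-fold line if its counts in the 2 libraries added up to 10 or more, which left 20771 genes with a median log2 ratio of 0.0038. Ratios are TNF-α over control on the same scale, with 2 added as the prior count. Each ratio is given with its 95% Clopper-Pearson interval, and each level with an exact Poisson interval, both of which cover counting error only because amplified reads lacking molecular identifiers do not stand for separate molecules. Basal cell genes were well counted in both libraries, with Krt14 at 5155 CPM in the control and 4871 CPM with TNF-α. The luminal keratin gene Krt8 was also present, at 1213 and 1132 CPM, so the cultures did not hold basal cell transcripts alone.

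All 8 members passed the filter. Fxyd5 was more than 2-fold higher with TNF-α, where 8.56% of all genes tested were, and Fxyd2 and Atp1b2 were more than 2-fold lower, where 6.62% were. These counts rest on the contrast by which the genes were chosen. The other 5 members lay within 2-fold. The median log2 ratio of the 8 members was -0.24. Fxyd5, at 1.01, and Atp1b2, at -1.14, lay just past the 2-fold line, and the nearest member inside it was Atp1b3 at -0.66.

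**Figure D1:**
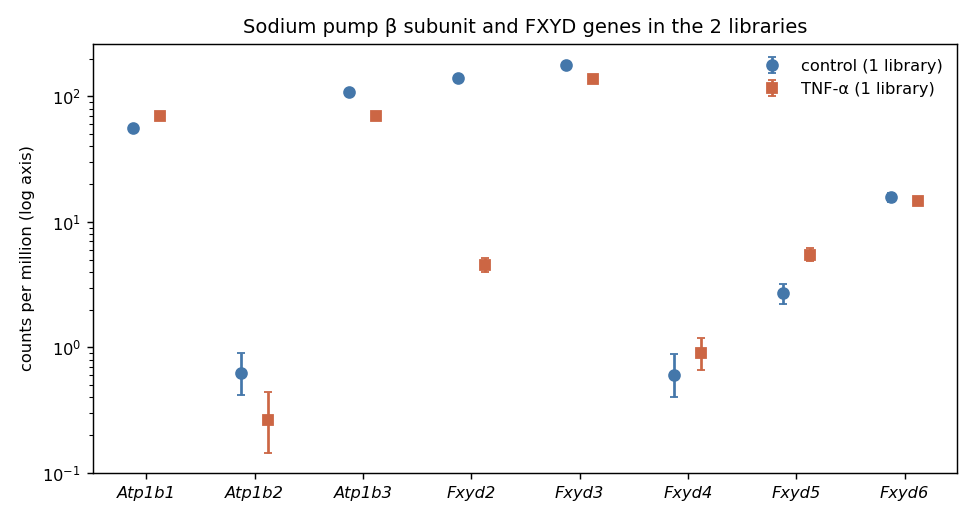
CPM of each member in the control library (circles) and the TNF-α library (squares) on a log axis, with bars for the 95% counting interval of each library. Fxyd2 went from 141 to 4.52 CPM, whereas the symbols of Fxyd6 lie close together at 15.7 and 14.7 CPM.

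Fxyd2 encodes the γ subunit of the pump, best known from the kidney tubule, where it lowers the pump's affinity for sodium. It had 6274 counts in the control and 241 with TNF-α, which is 141 and 4.52 CPM. The TNF-α library was thus 31.2-fold lower, a log2 ratio of -4.95 (95% interval -5.15 to -4.78). Only 1 of the 20771 genes tested had a lower ratio. Scaled for summed exon length and library total (TPM), Fxyd2 lay above 92.7% of the genes tested in the control library and above 35.5% with TNF-α. The gene lies on chromosome 9 of GRCm38 from 45399669 to 45410278 on the plus strand, and its exons overlapped those of no other gene in the deposited coordinates.

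Fxyd6, which encodes phosphohippolin, a pump regulator known from the brain, is the neighbour of Fxyd2 on the same strand (chromosome 9, 45370185 to 45396159), and 3510 bases separate the 2 genes. It had 698 counts in the control and 782 with TNF-α, or 15.7 and 14.7 CPM. Its log2 ratio of -0.10 had an interval from -0.24 to 0.05, which includes no change. For each count of Fxyd2 there were 0.111 counts of Fxyd6 in the control and 3.24 with TNF-α. This 29.2-fold shift (log2 difference 4.87, 95% interval 4.63 to 5.10) does not depend on how the libraries were scaled. The low value of Fxyd2 was therefore not shared by Fxyd6. On the opposite strand, 3195 bases from Fxyd2, RP24-446P15.4 had 10 counts in the control and 0 with TNF-α, too few to set a size.

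Fxyd3 encodes Mat-8, a pump regulator first described in mammary tumours, and was the FXYD gene with the most counts. It had 7979 counts in the control and 7389 with TNF-α, or 179 and 138 CPM, a log2 ratio of -0.37 (95% interval -0.42 to -0.32). Of its exon bases, 42.5% overlap exons of Lgi4 on the opposite strand, which had 3826 and 3569 counts and a log2 ratio of -0.36. Whether counting used the strand is not given in the sources used here, and without strand the reads of the 2 genes cannot be told apart. Fxyd3 lies on chromosome 7 (31068172 to 31076704, minus strand).

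Fxyd5 encodes dysadherin, a pump regulator with a long extracellular part that weakens adhesion between epithelial cells. It lies in the same cluster as Fxyd3 on chromosome 7 (31032722 to 31042481, minus strand), 25691 bases away. It had 120 counts in the control and 292 with TNF-α, or 2.69 and 5.47 CPM. The fold was 2.03, a log2 ratio of 1.01 (95% interval 0.71 to 1.34), so the interval reached below 2-fold, and with a prior count of 5 the gene was no longer past it. Relative to Fxyd3 in the same library, Fxyd5 went from 0.015 to 0.0395 counts per count, a 2.63-fold shift (log2 difference 1.39, 95% interval 1.08 to 1.70). The microRNA gene Mir7050 lies within its exons and had 1 count in each library.

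Fxyd4 encodes CHIF, which raises the pump's affinity for sodium in the kidney collecting duct and colon. It was rarely counted, with 27 counts in the control and 48 with TNF-α, or 0.606 and 0.90 CPM. Its log2 ratio of 0.54 had an interval from -0.14 to 1.31, so no difference was detectable at this depth. The gene lies on chromosome 6 (117933559 to 117937692, minus strand).

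**Figure D2:**
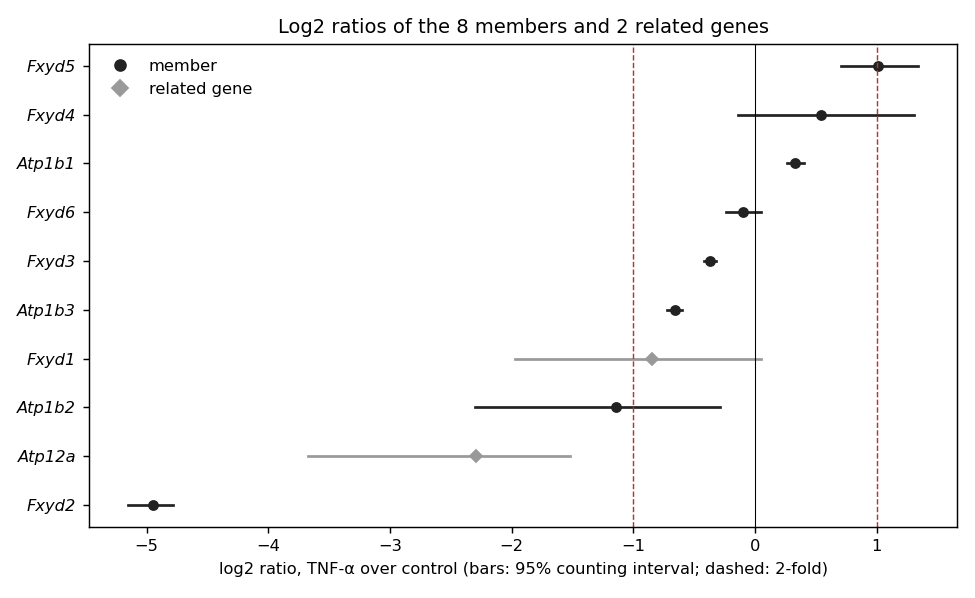
Log2 ratio of TNF-α to control for the 8 members (black circles) and the related genes Fxyd1 and Atp12a (grey diamonds), with 95% counting intervals and dashed lines at 2-fold. Fxyd2 stands at -4.95 and Fxyd5 on the upper 2-fold line at 1.01, while the ratios of Atp1b1 and Atp1b3 lie on opposite sides of 0.

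Among the β subunit genes, Atp1b1 was slightly higher with TNF-α and Atp1b3 lower. Atp1b1, which encodes the β1 subunit of most epithelia, had 2479 counts in the control and 3732 with TNF-α, or 55.6 and 69.9 CPM. Its log2 ratio was 0.33 (95% interval 0.26 to 0.40), a fold of 1.26. Atp1b3, which encodes the β3 subunit, had 4869 counts in the control and 3693 with TNF-α, or 109 and 69.2 CPM. It was 1.58-fold lower, a log2 ratio of -0.66 (95% interval -0.72 to -0.60), and 11.6% of the genes tested had a lower ratio. Neither gene passed 2-fold.

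As a ratio within each library, the shift between these genes was close to 2-fold. There were 1.96 counts of Atp1b3 for each count of Atp1b1 in the control and 0.99 with TNF-α, a 1.98-fold shift (log2 difference -0.99, 95% interval -1.08 to -0.89). Atp1b1 lies on chromosome 1 (164437109 to 164458355, minus strand), where 18.7% of its exon bases overlap exons of Nme7 on the opposite strand. Nme7 had 812 and 992 counts, a log2 ratio of 0.03. Atp1b3 lies on chromosome 9 (96332655 to 96364442, minus strand) and its exons overlapped no other gene.

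Atp1b2 encodes the β2 subunit, known as an adhesion molecule on glia. It had 28 counts in the control and 14 with TNF-α, or 0.628 and 0.262 CPM. Its log2 ratio of -1.14 passed 2-fold, but the interval ran from -2.30 to -0.29, and the gene was below 1 CPM in both libraries. If both ends of a read pair were counted, that interval is too narrow, and the direction is not settled by counting. The gene lies on chromosome 11 (69599736 to 69605942, minus strand).

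**Figure D3:**
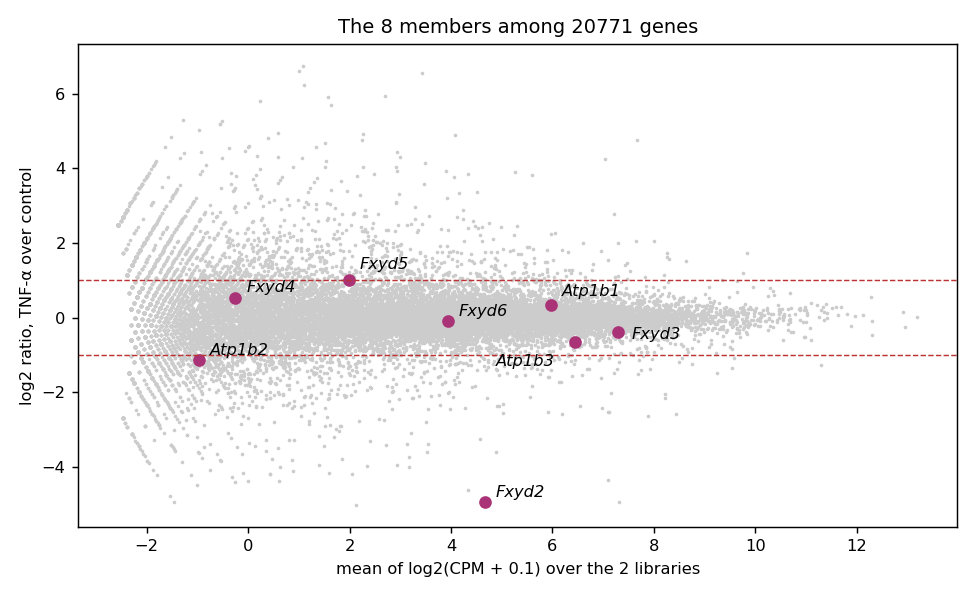
Log2 ratio of TNF-α to control against the mean of log2(CPM + 0.1) over both libraries for the 20771 genes tested (grey) with the 8 members marked. Fxyd2 lies at the lower edge of the cloud among well counted genes, and Fxyd4 and Atp1b2 lie among genes near or below 1 CPM, where ratios spread widely.

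Levels were compared between genes only per length. By TPM over the summed exon length, the order in the control library was Atp1b3 at 129, Fxyd3 at 104, Fxyd2 at 99.2, Atp1b1 at 50.9, Fxyd6 at 10.8, Fxyd5 at 1.81, Fxyd4 at 0.874 and Atp1b2 at 0.434 TPM. The counting intervals of the neighbours Fxyd3 (102 to 106 TPM) and Fxyd2 (96.8 to 102 TPM) reached about the same value. With TNF-α the order was Atp1b3 at 79.2, Fxyd3 at 78.0, Atp1b1 at 62.0, Fxyd6 at 9.75, Fxyd5 at 3.57, Fxyd2 at 3.08, Fxyd4 at 1.26 and Atp1b2 at 0.176 TPM. There the intervals of Atp1b3 and Fxyd3 overlapped, and so did those of Fxyd5 (3.17 to 4 TPM) and Fxyd2 (2.71 to 3.50 TPM). By exon length Fxyd2 was thus in the third place of the 8 members in the control and in the sixth with TNF-α.

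Summed exon length counts every annotated isoform, and for the FXYD genes it is far longer than a coding transcript. It was 4005 bases for Fxyd2, whose coding transcripts in the GENCODE M21 basic set had a median length of 650 bases. Per kilobase of coding transcript, an alternative chosen after seeing the data, Fxyd2 was at 217 CPM in the control library, above Fxyd3 at 107 CPM. With TNF-α it was at 6.95 CPM per kilobase, beside 83.1 for Fxyd3. The lower rank of Fxyd2 among the FXYD genes with TNF-α was thus seen with both lengths, but its place by point value in either library depended on the length. With TNF-α it lay below Fxyd5 by exon length and above it, at 6.95 beside 6.70 CPM per kilobase, by coding transcript length. As shares of the FXYD sum by coding transcript length, their intervals (5.74 to 7.32% for Fxyd2, 5.60 to 6.99% for Fxyd5) overlapped. The order of these 2 genes with TNF-α is therefore not settled by counting with either length.

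The makeup of each family within a library shows the same values as shares. Of the summed counts per kilobase of the 7 FXYD genes, Fxyd2 made up 45.6% of the control library (95% interval 44.8 to 46.4) and 3.21% of the TNF-α library (2.82 to 3.63). Fxyd3 went from 47.9% to 81.2%, Fxyd6 from 4.94% to 10.2% and Fxyd5 from 0.833% to 3.71%. With coding transcript lengths, Fxyd2 went from 64.1% to 6.50% and Fxyd3 from 31.8% to 77.7%. Among the β subunit genes, Atp1b3 went from 71.5% (95% interval 70.5 to 72.5) to 56.0% (54.8 to 57.1) and Atp1b1 from 28.2% (27.3 to 29.2) to 43.9% (42.7 to 45.0). A larger share here is not a larger amount, since Fxyd3 itself was lower with TNF-α.

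**Figure D4:**
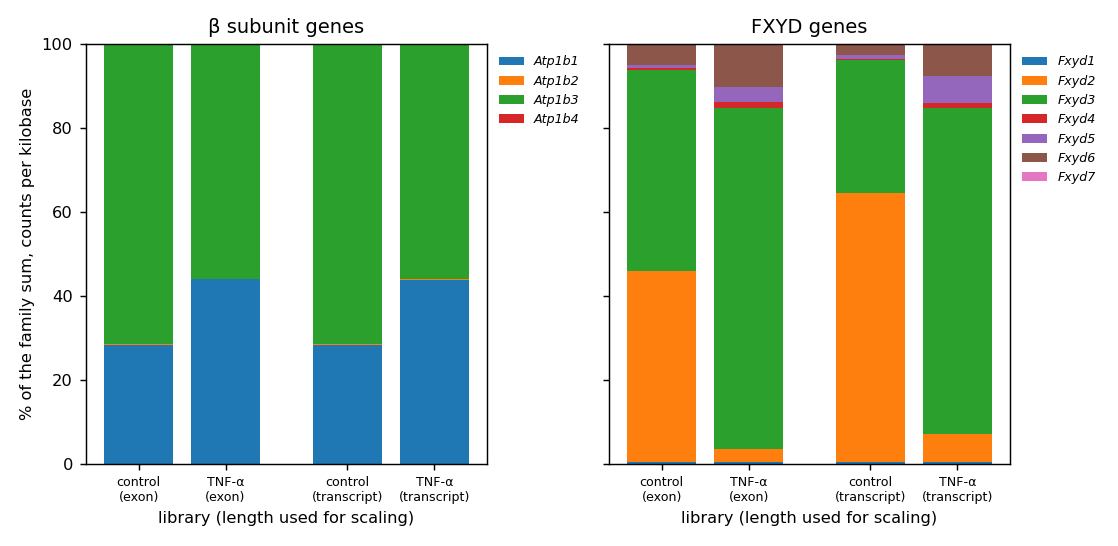
Share of each gene in the summed counts per kilobase of the β subunit genes and of the FXYD genes, in percent, for each library, with summed exon length and with coding transcript length. The Fxyd2 part shrinks from 45.6% to 3.21% by exon length, and the Atp1b1 part grows from 28.2% to 43.9%.

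Summed over each family, the β subunit counts had a log2 ratio of -0.25 (95% interval -0.29 to -0.20) and the FXYD counts -1.05 (95% interval -1.08 to -1.01). The lower FXYD sum was mostly made of Fxyd2, which went from 6274 of 15124 counts to 241 of 8767.

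Related genes outside the members were rarely counted. Fxyd1, which encodes phospholemman, the pump regulator of heart and muscle, had 24 counts in the control and 15 with TNF-α (log2 ratio -0.85, 95% interval -1.97 to 0.05). The floor was set at 3 counts, or 0.0673 CPM in the control and 0.0562 CPM with TNF-α. For a count of 0, the 95% Poisson interval reached 0.0828 CPM in the control and 0.0691 CPM with TNF-α. Fxyd7 had 2 and 0 counts and Atp1b4 had 0 and 6 counts. Of the proton-potassium pump genes, Atp4a had 0 and 4 counts, Atp4b had 1 and 0, and Atp12a, the non-gastric pump, had 48 and 10 counts (log2 ratio -2.29, 95% interval -3.67 to -1.52). Atp12a was past 2-fold lower, while the interval of Fxyd1 included no change.

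The sequences before the start sites of 4 members are shown because they form pairs described above by their ratio within a library, Atp1b1 with Atp1b3 and Fxyd5 with Fxyd3. They are the 250 bases before the RefSeq start on GRCm38.p6, read 5′ to 3′ on the minus strand, with motif matches in capitals. Of the 8 members, 6 matched an entry, all but Fxyd2 and Atp1b2, and Atp1b3 had a further start that is not printed.
Atp1b1, chr1:164458356-164458605: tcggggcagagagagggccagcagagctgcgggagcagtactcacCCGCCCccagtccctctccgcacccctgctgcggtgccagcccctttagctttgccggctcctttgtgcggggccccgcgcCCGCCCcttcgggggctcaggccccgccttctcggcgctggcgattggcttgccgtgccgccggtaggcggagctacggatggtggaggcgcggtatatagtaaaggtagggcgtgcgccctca
Atp1b3, chr9:96364432-96364681: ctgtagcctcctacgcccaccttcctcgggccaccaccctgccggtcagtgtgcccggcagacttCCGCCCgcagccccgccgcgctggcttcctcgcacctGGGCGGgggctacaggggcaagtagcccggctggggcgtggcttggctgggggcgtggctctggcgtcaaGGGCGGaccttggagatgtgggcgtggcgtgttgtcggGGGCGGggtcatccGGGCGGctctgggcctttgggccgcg
Fxyd5, chr7:31042332-31042581: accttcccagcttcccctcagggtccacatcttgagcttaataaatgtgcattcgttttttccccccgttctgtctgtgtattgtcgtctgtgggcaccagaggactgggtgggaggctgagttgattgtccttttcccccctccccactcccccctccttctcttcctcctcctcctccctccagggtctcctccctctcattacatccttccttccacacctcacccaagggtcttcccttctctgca
Fxyd3, chr7:31076698-31076947: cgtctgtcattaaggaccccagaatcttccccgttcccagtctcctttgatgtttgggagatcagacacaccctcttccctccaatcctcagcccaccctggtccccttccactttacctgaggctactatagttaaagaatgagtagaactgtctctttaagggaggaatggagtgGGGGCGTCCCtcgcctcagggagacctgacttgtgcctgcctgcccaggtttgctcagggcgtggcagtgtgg

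The motifs were searched on both strands in the same 250 bases of all 32851 promoters. The GC box GGGCGG, which 32.7% of the promoters hold, was matched at 2 places in Atp1b1, 5 places in the printed start of Atp1b3 and 1 place in Fxyd4. The NF-κB consensus, held by 7.25% of the promoters, was matched at 1 place in Fxyd3, starting 73 bases before the start, and in none of the other entries of the members. The AP-1 motif TGANTCA (6.75% of promoters), the steroid receptor motif AGAACA (16.1%) and TATAAA (12.4%) were matched in 0 of the 6 members. The windows of Atp1b1 and Atp1b3 held 70.4% and 73.6% G and C, and those of Fxyd5 and Fxyd3 held 55.6% and 55.2%. No matches overlapped, and a match is a run of letters, not a bound site.

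Of all genes tested, 8.56% were past 2-fold higher and 6.62% lower. Within 100 kb of the members lay 46 other genes that passed the filter, and 5 of them were past 2-fold, none with at least 200 counts. The 1 such gene near Fxyd2 was RP24-446P15.4, given above. Near Fxyd4, Rasgef1a had 12 counts in the control and 179 with TNF-α, a log2 ratio of 3.45. The others were Gm32391 and Gm26685 near Atp1b1 and Dnah2 near Atp1b2, and all 5 were named after their values were seen.

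Other genes of epithelial sodium transport were set beside the pump. Sodium enters epithelial cells through the channel ENaC, whose α subunit gene Scnn1a had 2311 counts in the control and 1124 with TNF-α. It was 2.46-fold lower (log2 ratio -1.30, 95% interval -1.40 to -1.20). Past 2-fold lower were 6.62% of all genes tested, and past 2-fold higher 8.56%. Of the 19 genes of sodium entry and its regulators, Scnn1a was the 1 gene past 2-fold lower and 0 were higher, with a list median of -0.18. Sgk1, a kinase that promotes sodium channel and pump activity, was the highest of the well counted genes, with 1835 and 3788 counts (log2 ratio 0.79, 95% interval 0.71 to 0.87). The channel subunit genes Scnn1b and Scnn1g had 20 counts each in the control, and 12 and 49 with TNF-α (both named after their values were seen).

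Some cotransporters and channels for potassium and chloride had larger differences. Of 17 genes tested, 2 were past 2-fold higher and 3 past 2-fold lower, beside 8.56% and 6.62% of all genes tested. The list median was -0.17. Slc12a2, the sodium-potassium-chloride cotransporter NKCC1 that loads secretory cells with chloride, had 29300 counts in the control and 14946 with TNF-α, a log2 ratio of -1.23 (95% interval -1.26 to -1.20). The sodium-chloride cotransporter gene Slc12a3, known from the kidney distal tubule, had 1320 and 227 counts, a 6.96-fold lower value (log2 ratio -2.79). Kcne3, a potassium channel subunit gene of secretory epithelia, had 3491 and 1759 counts (log2 ratio -1.25). The chloride channel gene Cftr went the other way, with 58 and 493 counts, 7.10-fold higher (log2 ratio 2.79, 95% interval 2.43 to 3.25). Kcnma1, with 4 and 18 counts, was the other gene past 2-fold higher (named after its values were seen).

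**Figure D5:**
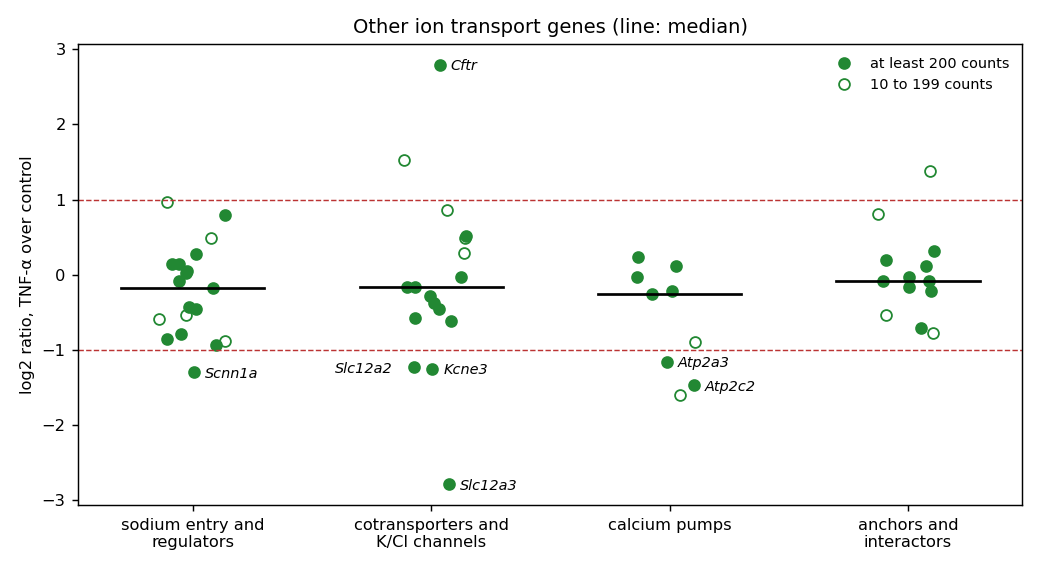
Log2 ratio of TNF-α to control for the tested genes of 4 ion transport lists, with filled circles for genes of at least 200 counts and lines for the list medians. The lowest and the highest filled circles are Slc12a3 at -2.79 and Cftr at 2.79, and the medians lie between -0.26 and -0.08.

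Genes of particular cell types differed alongside Fxyd2. The 15 luminal genes summed to 4704 CPM in the control and 3737 CPM with TNF-α, the median ratio being -0.63 (log2). Pgr, Esr1 and Prlr were past 2-fold lower and 0 genes higher. Pgr, the progesterone receptor gene, was the lowest, at 162 and 55.7 CPM (log2 ratio -1.54), and Cited1 was the highest, at 2.98 and 4.42 CPM (log2 ratio 0.56). Of 9 squamous differentiation genes tested, 4 were past 2-fold lower and 0 higher, with a median of -0.61 and sums of 2936 and 2385 CPM. These were Krt10, Krt1, Flg and Ivl. Krt10, a keratin gene of differentiated epidermis, was the lowest, at 99.5 and 4.01 CPM (log2 ratio -4.62), and Krt16 was the highest, at -0.14. The 12 basal genes summed to 13258 and 12166 CPM with a median of -0.14, from Lgr5 at -1.20 to Krt17 at 0.31, with Lgr5 and Oxtr past 2-fold lower and 0 genes higher. Set beside these 3 lists, 6.62% of all genes tested were past 2-fold lower and 8.56% higher. None of these 3 lists had a gene at 0 in both libraries. Esr1, Prlr, Krt1, Flg, Ivl and Oxtr were named after their values were seen. In bulk samples fewer cells of a type and less RNA per cell cannot be told apart, and the part of these cell types in the value of Fxyd2 was not tested.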

How the data were processed

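RNA-seq was performed on 1 control and 1 TNF-α treated culture of mouse mammary basal cells. The authors deposited read counts per gene, not normalized, with exon coordinates, strand and summed exon length. The builds named in the submitters' processing notes are GRCm38 and mm10, and the 8 members had the coordinates of GENCODE M21 on GRCm38. The aligner, counting tool and strand setting are not given in the sources used here. Genes with 2 counts (2172) outnumbered those with 1 (618) in the control, so both ends of a read pair may have been counted. In that case the counting intervals are too narrow.

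TMM scaling of the deposited counts across all genes used edgeR 4.0.16 in R 4.3.3. Log2 CPM ratios took a prior count of 2, and genes whose summed count was under 10 were left out. A gene was called past 2-fold by its ratio alone. With 1 library per group there are no residual degrees of freedom for edgeR's quasi-likelihood fit, and no p-value is given. Levels between genes were taken as TPM, computed from the deposited counts and exon lengths. Differences of ratios within a library have 95% intervals by a normal approximation on log counts. The floor was 3 counts per library.

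Members, gene lists and tests were chosen with earlier results of these data known. Named were the members, the other pump genes, in each other list the highest and lowest gene with at least 200 counts and those past 2-fold among such genes, in each cell type list the highest and lowest, and neighbours past 2-fold with at least 200 counts. Some genes that the rule names are not reported here. Genes outside the rule are marked, apart from Krt14 and Krt8, which check the cell type, and genes that overlap a member. The pump gene lists cover sodium entry, cotransporters and channels, calcium pumps, and pump anchors and interacting proteins, and the cell type lists cover basal, luminal, squamous, fibroblast, leukocyte, endothelial, adipocyte, and nerve and glia genes. Alternatives were total counts, DESeq2 1.42.0 size factors, upper quartile scaling, other prior counts, filters and folds, halved or thinned counts, and other gene lengths. The scripts, in Python 3.11.15, were tested on simulated data.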

Additional observations from a re-analysis of the deposited data

How the results depend on the processing

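No paired analysis was possible because neither condition had a second library, so leaving out a replicate was not possible either. Across 8 alternatives of scaling, prior count, depth and library composition, the log2 ratio of Fxyd2 lay between -4.96 and -4.93, that of Atp1b3 between -0.67 and -0.66, that of Atp1b1 between 0.32 and 0.35 and that of Fxyd5 between 0.99 and 1.02. Fxyd5 is thus on the 2-fold line: with a prior count of 5 or with the TNF-α library thinned to the control total, 0 members were past 2-fold higher. When the whole counting interval had to pass 2-fold, 0 members were higher and 1, Fxyd2, was lower, among 776 genes higher and 561 lower. With at least 1 CPM in a library, which leaves out Atp1b2, 1 member was lower, among 836 genes higher and 658 lower. Without a filter 2679 genes were higher and 2996 lower, and at a fold of 1.5 there were 3210 and 2846.

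In the wider lists, which hold few called genes, a prior count of 0.5 put 1 gene of sodium entry past 2-fold higher, and a fold of 1.5 gave 2 higher and 6 lower there and 2 higher and 2 lower among pump anchors. Without a filter there were 2 pump family genes higher, 5 cotransporter and channel genes lower and 1 anchor gene lower. With at least 1 CPM, 1 cotransporter or channel gene was higher. When the whole interval had to pass 2-fold, there were 1 pump family gene lower, 1 cotransporter or channel gene higher, 1 calcium pump gene lower and 0 anchor genes higher. With GENCODE coding transcript lengths, chosen after seeing the data, the share of Fxyd2 was 64.1% in the control and 6.50% with TNF-α. That of Fxyd3 was 31.8% and 77.7%, that of Fxyd6 2.59% and 7.67%, and that of Fxyd5 6.27% with TNF-α. Coding transcripts were shorter than the summed exons, by unlike amounts between these genes. The shares of Atp1b1 and Atp1b3 kept within their intervals. Under the alternatives run, 285 values of 318 stayed within their interval or within 1.5 times their count, and no called value changed sign.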

Other observations

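Calcium pumps, which belong to the same class of ATPases as the sodium pump, had 2 of 9 ratios above 0. Of the 9 genes tested, 0 were past 2-fold higher and 3 past 2-fold lower, beside 8.56% and 6.62% of all genes tested. The median log2 ratio of the list was -0.26. Atp2c2, which encodes the secretory pathway calcium pump SPCA2 of the lactating mammary gland, had 659 counts in the control and 283 with TNF-α (log2 ratio -1.47, 95% interval -1.69 to -1.28). Atp2a3, a calcium pump gene of the endoplasmic reticulum, had 709 and 378 counts (log2 ratio -1.16). Atp2b2, the third gene past 2-fold, had 62 and 23 counts and was named after its values were seen. The highest was the plasma membrane pump gene Atp2b1, with 10084 and 14304 counts (log2 ratio 0.24).

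Genes of pump anchors and interacting proteins had a median log2 ratio of -0.08 over 13 genes tested. Of these, 1 was past 2-fold higher and 0 lower, beside 8.56% and 6.62% of all genes tested. Bsg, which encodes basigin, a chaperone of lactate transporters, was the highest of the well counted genes at 0.31. The gene past 2-fold was Nkain1, with 20 and 66 counts (named after its values were seen).

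Genes of other cell types were summed in the same way. Their counts past 2-fold stand beside 8.56% of all genes tested that were higher and 6.62% that were lower. The 7 fibroblast genes summed to 517 CPM in the control and 495 CPM with TNF-α, from Pdgfrb at a log2 ratio of -0.93 to Dcn at 1.39, with a median of 0.07, and Dcn was the 1 gene past 2-fold. The 8 leukocyte genes summed to 8.32 and 6.54 CPM, with Cd3e at 0 in both libraries and Lyz2, the 1 well counted gene, at -0.32, a median of -0.41 over 6 tested and 0 past 2-fold. The 5 endothelial genes summed to 7.07 and 6.75 CPM, and the well counted genes (at least 200 counts over both libraries) were Pecam1 at -0.29 and Cdh5 at 0.22, with a median of -0.24 over 4 tested and 0 past 2-fold. The 4 adipocyte genes summed to 7.52 and 2.92 CPM, with Plin1 at 0 in both libraries, Fabp4 at -0.75 and Lep past 2-fold lower at 127 and 10 counts, a median of -2.21 over 2 tested. The 6 nerve and glia genes summed to 169 and 132 CPM, the well counted genes being Sox10 at -0.39 and Snap25 at 0.24, and Sox10 alone gave 162 and 124 CPM of it. Their median was -0.06, and Tubb3 was past 2-fold higher and S100b lower. Lep, Tubb3 and S100b were named after their values were seen.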
